A study of Mus musculus with 5 samples.

Results

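A total of 568 H3K36me3 islands were at most 0.5 times as wide in L-proline-induced cells (PiCs) as in untreated mouse embryonic stem cells (ESCs). An island is a broad region enriched for the mark. These halved islands were chosen by their widths: each is an autosomal ESC island that overlapped exactly 1 PiC island, which overlapped no other ESC island, with a PiC width of at most 0.5 of the ESC width. They are 568 of 7542 autosomal islands with such a 1-to-1 partner, and of 11971 autosomal ESC H3K36me3 islands in all. Of the other ESC islands, 1202 met no PiC island, 2100 met 2 or more, and 1127 met a PiC island that spanned several ESC islands. Their widths, and all tag densities of the same lists, belong to the choice of the islands and are given as a description.

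Both groups came from the wild-type TBV2 ESC line (129/SvP strain), kept in medium with leukemia inhibitory factor and lacking non-essential amino acids. PiCs received 500 µM L-proline for 5 days, and ESCs were grown for the same 5 days without it, both at low density on gelatin with no feeder cells. H3K36me3 and H3K9me3 were mapped by chromatin immunoprecipitation and sequencing with 1 library per mark and condition, and an input library of untreated cells was not analysed here. The labels do not say how many cultures a library held, and no test between PiCs and ESCs was possible. All intervals below are exact (Clopper-Pearson) 95% binomial intervals over islands and cover counting error only.

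H3K36me3, trimethylation of histone H3 at lysine 36, is laid down in mammals mainly by SETD2, an enzyme that travels with elongating RNA polymerase II. The mark therefore lies over the bodies of transcribed genes, commonly stronger towards their ends, and is bound by readers such as DNMT3B. H3K9me3, trimethylation at lysine 9, marks silenced chromatin and repeats, and was used here as a second mark that took no part in the choice of the islands.

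The PiC H3K36me3 list held 16804 islands with 15787192 tags in all, and the ESC list held 12280 islands with 26055650 tags. Total library depth is unknown, because the lists count only tags inside islands. The autosomal lists covered almost equal lengths, 225.4 Mb in PiCs and 227.7 Mb in ESCs. Median density over autosomal islands was 49.2 tags per kb in PiCs and 71.7 tags per kb in ESCs. Tag numbers are not scaled to depth, so a density ratio below 1 is not by itself a loss of signal, and it is read here only beside the ratio in other pairs.

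The halved islands made up 7.53% (6.95 to 8.15) of the 1-to-1 pairs. The opposite class, with a PiC width at least 2 times the ESC width, had 216 pairs or 2.86% (2.5 to 3.27), so there were 2.63 (2.24 to 3.09) halved islands for each doubled one. Most pairs, 5234 or 69.4%, kept their width, meaning that neither island was narrower than 0.8 of the other. Over all pairs narrowing was thus the more frequent large change of width, but in ESC islands under 5 kb the order was reversed, with 21 halved and 83 doubled pairs. The excess was smaller, at 1.81, where neighbouring islands were joined over gaps of up to 2 kb before pairing.

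Halved islands had a median width of 3.8 kb in PiCs (quartiles 2.8 and 5 kb, range 0.4 to 17.6 kb) and of 11.2 kb in ESCs (quartiles 8 and 15.8 kb, range 2.4 to 81.8 kb). The median width ratio was 0.361, with quartiles of 0.27 and 0.444. Together they covered 2.37 Mb in PiCs and 7.36 Mb in ESCs, and the receded sequence came to 5.05 Mb, or 2.22% of the autosomal ESC coverage. Pairs of kept width had a median of 14.6 kb in PiCs and 14.6 kb in ESCs. Halving was most frequent in ESC islands of 10 to 20 kb (10.5% of pairs) and of 5 to 10 kb (9.51%). It was rarer below 5 kb (2.8%) and in islands of 40 kb or more (1.12%, 6 of 536 pairs).

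**Figure D1:**
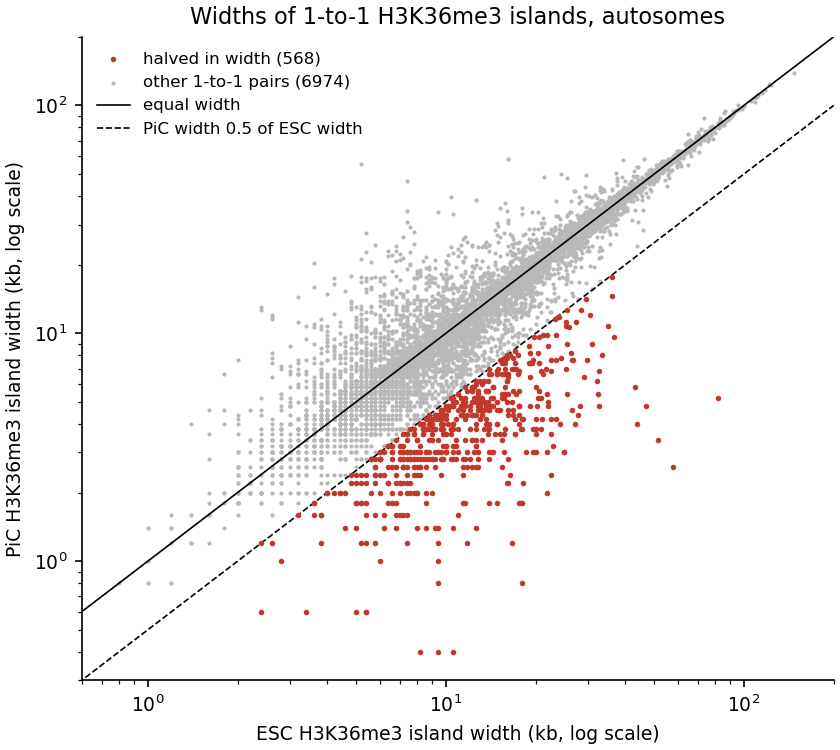
Width of the PiC island (vertical, kb, log scale) against the ESC island (horizontal, kb, log scale) for each autosomal 1-to-1 H3K36me3 pair; the solid line marks equal width and the dashed line the limit of 0.5. The 568 halved islands lie on or under the dashed line with no gap to the other pairs, and the smallest width ratio, 0.0377, belongs to an ESC island of 10.6 kb.

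The limit did not fall in a gap of the distribution. A ratio of 0.48 to 0.5 was found in 57 members, 28 of them at exactly 0.5, and 31 pairs had a ratio above 0.5 and up to 0.52. Just inside the limit, the island at chr1:63296001-63319200 (mm9, as are all positions) spanned 11.6 kb in PiCs against 23.2 kb in ESCs. At chr10:21700201-21710600 the widths were 5.2 kb in PiCs and 10.4 kb in ESCs, and at chr10:119960801-119969600 they were 4.4 kb and 8.8 kb in the same order. Just outside, chr8:44213201-44235400 spanned 11.2 kb in PiCs against 22.2 kb in ESCs, a ratio of 0.505. The next pairs outside, at chr1:121362401-121393200 and chr9:77295801-77311200, each had a ratio of 0.506.

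The rule fixed how much width was lost but not where, and halved islands receded at either edge about equally often. An edge was called the main one where it held at least 80% of the receded length. By that measure 164 islands (28.9%, 25.2 to 32.8) receded mainly at the lower-coordinate edge, 175 (30.8%, 27 to 34.8) mainly at the upper-coordinate edge and 229 (40.3%, 36.3 to 44.5) at both. Among the 339 islands with a single main edge, 48.4% (42.9 to 53.8) receded at the lower one, an interval that spans an even split. In total 2.49 Mb was lost at lower edges and 2.56 Mb at upper edges. The lower edge moved further in than the upper one in 272 islands (47.9%, 43.7 to 52.1), and 7 islands moved equally at both. Gene strand was not available on this build, so neither edge can be called the 5′ or the 3′ side of a gene, and a preference relative to transcription was not tested.

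Many islands kept an edge in or near its place, and in many both edges moved inwards. The lower edge moved inwards by a median of 3.4 kb (quartiles 0.8 and 6.2 kb, up to 37 kb) and the upper edge by a median of 3.4 kb (quartiles 0.8 and 6.4 kb, up to 68 kb). Both edges moved inwards, by any distance, in 402 islands (70.8%, 66.8 to 74.5). In 213 islands (37.5%, 33.5 to 41.6) an edge stayed within 400 bp of its ESC position while the other withdrew. These counts overlap, since an edge within 400 bp can also have moved inwards. The lower edge stayed in the very same 200 bp window in 42 islands and the upper edge in 38. An edge moved outwards by up to 3.2 kb in a minority, 38 islands at the lower and 48 at the upper edge, while the opposite edge more than made up for it.

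The split of the receded length was U-shaped. In 131 islands under 10% of it lay at the lower edge and in 134 islands at least 90% did, whereas each of the 8 bins of 10 percentage points between held 30 to 47 islands. With the ESC island cut into 3 equal parts, the centre of the remaining PiC island lay in the lower part in 34.7% of members, in the middle part in 34.2% and in the upper part in 31.2%. The 3 positions of the remnant were thus about equally frequent. A remnant inside the ESC island cannot be centred at its very ends, so equal shares do not mean an even placement.

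**Figure D2:**
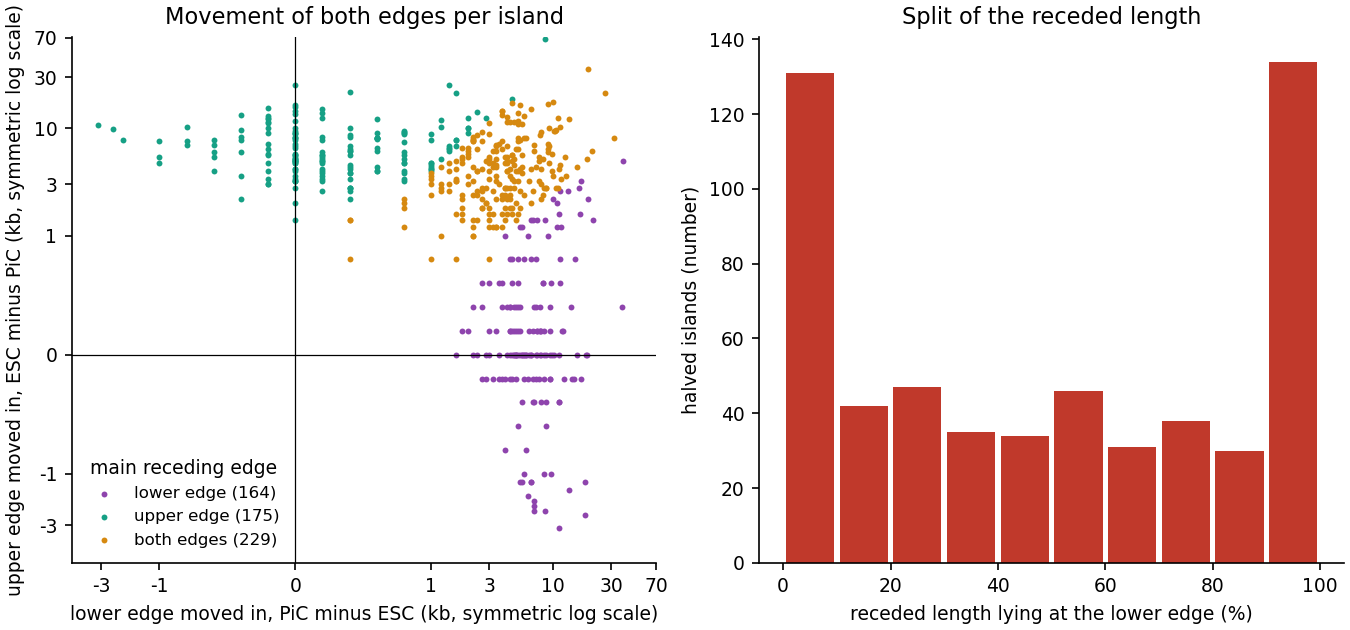
Left, distance by which the lower (horizontal) and the upper (vertical) edge of each halved island moved inwards, in kb on symmetric log scales, with points coloured by main receding edge; right, number of halved islands by the share of their receded length lying at the lower edge. Points form an arm along each axis and a cloud where both edges moved, and the outermost bars, at 131 and 134 islands, exceed the 8 between them.

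Stronger narrowing went with trimming at both ends. Of the 68 islands that kept at most 0.2 of their width, 45 (66.2%) receded at both edges, against 42.7% at ratios of 0.2 to 0.3, 33.3% at 0.3 to 0.4 and 36.3% at 0.4 to 0.5. Pairs that shrank less, at ratios between 0.5 and 0.8, receded at both edges in 17.2% to 20.2%. Islands receding at both edges were also wider in ESCs, with a median of 12.8 kb, than those receding mainly at the lower (10.4 kb) or the upper edge (10.2 kb). The PiC width left was 3.8 kb at the median in each of the 3 classes. Doubled pairs, read the other way, grew mainly at the lower edge in 31.9%, mainly at the upper edge in 34.3% and at both in 33.8%.

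The largest single withdrawal was at chr2:76538601-76620400, where a PiC island of 5.2 kb with 156 tags stood in place of an ESC island of 81.8 kb with 4210 tags. The upper edge withdrew by 68 kb and the lower by 8.6 kb. The density was 30 tags per kb in PiCs and 51.5 tags per kb in ESCs. The next largest was at chr11:12133801-12191400, with 2.6 kb and 109 tags in PiCs against 57.6 kb and 5690 tags in ESCs, the most ESC tags of any halved island. It receded by 19.2 kb at the lower and 35.8 kb at the upper edge. At chr1:135593201-135637000 the PiC island held 4 kb and 174 tags, against 43.8 kb and 3866 tags in ESCs. In all 3 of these islands both edges withdrew by more than 8 kb.

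Other wide islands withdrew mainly at the lower edge. At chr1:129328801-129375600 the PiC island had 4.8 kb and 184 tags, against 46.8 kb and 2010 tags in ESCs, and 37 kb of the loss lay at the lower edge. At chr2:84272001-84315000 the lower edge withdrew by 36.8 kb and the upper edge by 0.4 kb, leaving 5.8 kb in PiCs of 43 kb in ESCs. At chr12:83050201-83086400, the widest PiC island of the set at 17.6 kb against 36.2 kb in ESCs, the lower edge withdrew by 18.6 kb and the upper edge stayed in its window. The upper edge moved by 5 kb in the first of these islands and by at most 0.4 kb in the others.

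The mirror image occurred as well. At chr7:13914401-13947800 the lower edge stayed in its window and the upper withdrew by 25.4 kb, leaving 8 kb and 206 tags in PiCs against 33.4 kb and 2215 tags in ESCs. At chr1:37421801-37458400 the upper edge withdrew by 25.6 kb, leaving 9.6 kb in PiCs against 36.6 kb in ESCs. The density of that island was nearly equal in both lists, at 30.1 tags per kb in PiCs and 31 tags per kb in ESCs.

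**Figure D3:**
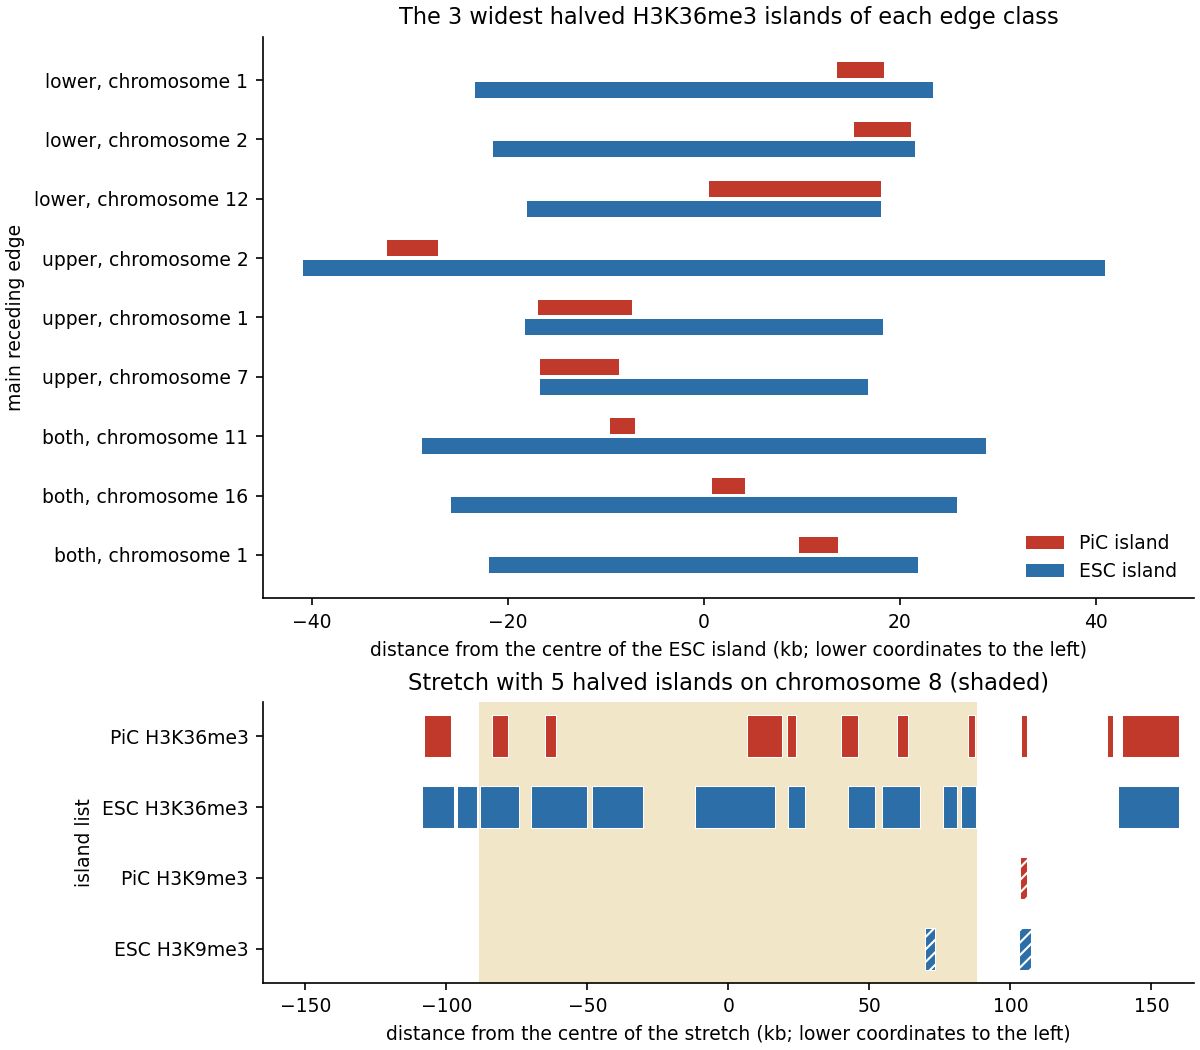
Top, PiC (red) and ESC (blue) islands of the 3 widest halved islands in each edge class, by distance from the ESC island's centre in kb; bottom, islands of all 4 lists around a stretch of chromosome 8 with 5 halved islands (shaded), by distance from its centre in kb. PiC islands lie right of the ESC island's centre in the lower-edge class and left of it in the upper-edge class, and 5 kb at the upper end of the first island and 8.6 kb at the lower end of the fourth were also lost.

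The halved islands were faint in the ESC list, with their median density at percentile 18.7, and less so in the PiC list, at percentile 34.1. The unscaled density of the sequence they kept was close to their ESC density. Their median density was 41.9 tags per kb in PiCs (quartiles 35.5 and 51.8) and 46.3 tags per kb in ESCs (quartiles 40.4 and 53.1), and the median ratio of PiC to ESC density was 0.892, with a lower quartile of 0.733. Pairs of kept width had 73.5 tags per kb in PiCs and 111.1 tags per kb in ESCs, with a median ratio of 0.651. The ratio of these ratios, halved over kept, was 1.37 (1.34 to 1.41, from the exact interval of the halved islands' median). More unscaled tags per kb in PiCs than in ESCs were found in 201 halved islands (35.4%, 31.5 to 39.5), against 12% of all 1-to-1 pairs and 8.54% of pairs of kept width.

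The difference in ratio was much smaller at matched ESC density. Among pairs with an ESC density between the halved islands' quartiles (40.4 to 53.1 tags per kb) the halved islands had a ratio of 0.892 (284 pairs) and pairs of kept width 0.861 (546 pairs), 1.04 times apart. This comparison was added after the first values had been seen. In that range the PiC density was 41.2 tags per kb in halved islands and 40.4 tags per kb in pairs of kept width. Against islands of similar width in the PiC list, the median was 41 tags per kb for halved islands and 41.8 for the others. Against islands of similar width in the ESC list, it was 44.6 tags per kb for halved islands and 62.3 for the others.

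In unscaled tag numbers every halved island had fewer tags in PiCs. The median tag number was 151.5 in PiCs and 531 in ESCs, with a median ratio of 0.315, and the sums were 100411 tags in PiCs and 375783 tags in ESCs. More tags in the PiC than in the ESC island were found in 0 of the 568 halved islands (0%, up to 0.647). The share was 14.7% of all 1-to-1 pairs and 9.78% of pairs of kept width. The width limit itself lowers the tag number of the PiC island, so this contrast belongs to the choice of the islands. Spread over the full ESC width, the tags of the PiC islands came to a median of 14.9 per kb. This value counts no tags on the receded sequence and is low because of the width limit. It is not a measured density of the full ESC island. Tags outside islands are not listed, so the signal left on the receded sequence is unknown.

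Halving became rarer as ESC density rose. When the 7542 pairs were ranked by ESC tags per kb into 10 classes of equal size, class 1 being the faintest, 29% (25.8 to 32.4) of class 1 were halved. The share was 22.3% in class 2, 11.3% in class 3, 5.04% in class 4 and 2.52% in class 6, and 0% (up to 0.487) of the 755 pairs of class 10. Doubled pairs reached no more than 5.84% in any class. Halved pairs outnumbered doubled ones in classes 1 to 4 and in class 6, whereas numbers were equal in class 7 (6 each). Doubled pairs were more numerous in class 5 (27 halved and 29 doubled), class 8 (4 and 6), class 9 (2 and 3) and class 10 (0 and 6). Below the ESC list median of 71.7 tags per kb lay 511 halved islands (90%, 87.2 to 92.3), against 40.3% of all 1-to-1 pairs. The share was 27% in pairs of kept width and 71.3% (64.8 to 77.2) in doubled pairs. Since the density enters through the ESC list that the choice used, these shares describe where the halved islands lie and test nothing.

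The faint and the dense halved islands differed in the density left. The 511 islands under the list median had 41.2 tags per kb in PiCs and 45.1 tags per kb in ESCs, with a median ratio of 0.915. The 57 at or above it had 55.7 tags per kb in PiCs and 88.3 tags per kb in ESCs, with a median ratio of 0.633. Pairs of kept width differed in the same direction, with median ratios of 0.827 under the list median and 0.596 at or above it. Those at or above it were denser than the 57, at a median of 138.4 tags per kb in ESCs, so the ratios are not at like density. Within class 6, the median PiC density was 48.8 tags per kb over 19 halved islands and 65.8 over pairs of kept width, while the ESC densities were 94.9 and 97.5 tags per kb in the same order. In class 1 the order was the other way, with 38.9 tags per kb in the PiC islands of halved pairs and 35.6 in those of pairs of kept width. By edge the intervals of the groups overlapped: 43.9% (30.7 to 57.6) of the dense and 39.9% (35.6 to 44.3) of the faint islands receded at both edges.

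**Figure D4:**
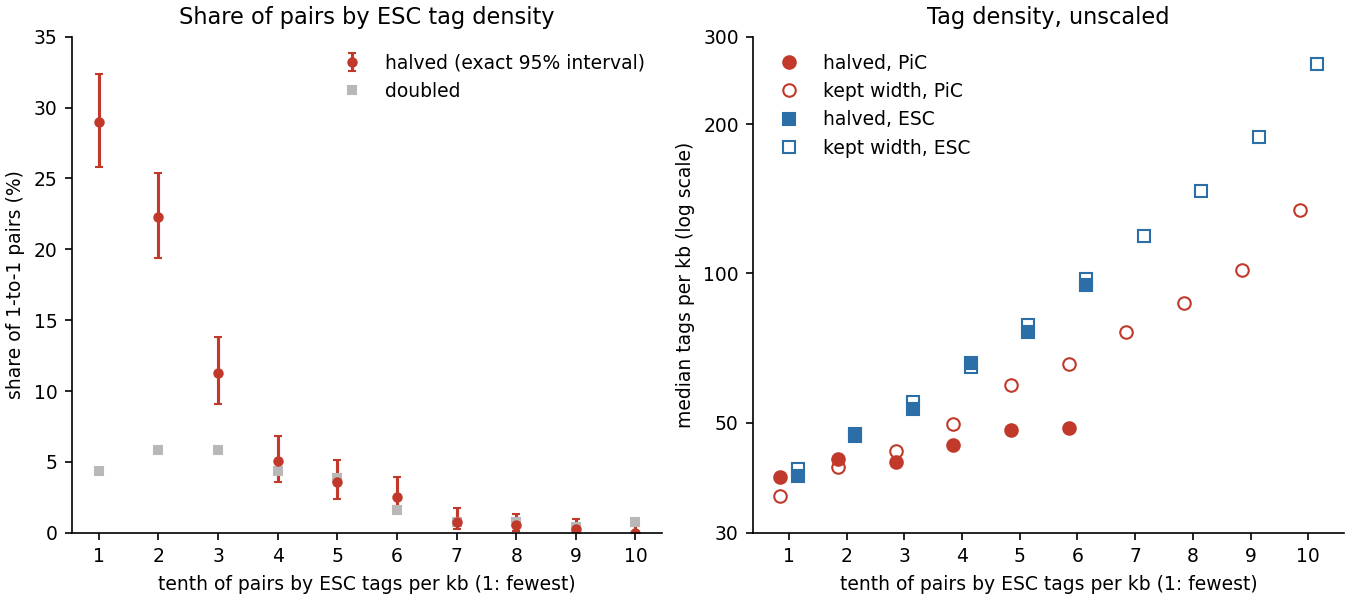
Left, share of 1-to-1 pairs that were halved (red, exact 95% interval) or doubled (grey) in each of 10 equal classes of pairs by ESC tags per kb; right, median unscaled tags per kb (log scale) in PiCs (red circles) and ESCs (blue squares) for halved pairs (filled, classes with at least 19 of them) and pairs of kept width (open). The halved share is 29% in class 1 and 0% in class 10, and the PiC density of halved islands lies below that of pairs of kept width in classes 3 to 6.

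Extremes of density lay in very narrow and very tag-rich islands. The highest ratio, 4.55, was at chr12:104068401-104079000, where 0.4 kb with 63 tags in PiCs stood against 10.6 kb with 367 tags in ESCs, a width ratio of 0.0377 that was also the smallest. At chr4:33485801-33495200 the PiC island again spanned 0.4 kb, with 58 tags, against 9.4 kb with 316 tags in ESCs, a density ratio of 4.31. At chr4:109547001-109555200, the ratio was 3.39, with 56 tags on 0.4 kb in PiCs against 339 tags on 8.2 kb in ESCs. At chr12:85154801-85172800, 70 tags on 0.8 kb in PiCs stood against 617 tags on 18 kb in ESCs, a density ratio of 2.55. Islands of 0.4 kb are 2 grid windows wide, and 64 autosomal PiC islands span 0.8 kb or less, 10 of them halved partners. Among halved islands with a wider PiC island the highest ratio was 2.24.

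At the other end, the island at chr9:99282601-99315200 had a density ratio of 0.278, with 208 tags on 6.8 kb in PiCs against 3588 tags on 32.6 kb in ESCs. At chr16:48548201-48580200 the ratio was 0.309, with 151 tags on 6.2 kb in PiCs against 2524 tags on 32 kb in ESCs. At chr9:69966001-69974200 it was 0.355, with 142 tags on 4 kb in PiCs against 821 tags on 8.2 kb in ESCs. Their PiC widths were above the halved islands' median of 3.8 kb, and their PiC densities below the median of 41.9 tags per kb.

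Across the halved islands, PiC density followed ESC density less closely than in pairs of kept width (Spearman's rho 0.258 over 568 islands and 0.862 over 5234 islands). The sets differ in their range of density, whose part was not tested, and the points share 2 libraries, so no p is given. Halved islands that kept at most 0.2 of their width had a median density of 50.4 tags per kb in PiCs against 46.6 in ESCs. Their PiC islands were also narrower, with a median of 2.4 kb against 4.4 kb at width ratios of 0.4 to 0.5. The width ratio belongs to the choice of the islands, and the part of PiC width in the density was not tested. The median density ratio was 0.972 at 0.2 to 0.3, 0.889 at 0.3 to 0.4 and 0.857 at 0.4 to 0.5. It went on down to 0.73 in pairs at 0.7 to 0.8. Main receding edge made little difference, with median ratios of 0.906 for lower, 0.885 for upper and 0.876 for both.

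H3K9me3 seldom occupied the sequence that H3K36me3 left. A PiC H3K9me3 island touched the receded sequence of 26 halved islands (4.58%, 3.01 to 6.64), and an ESC H3K9me3 island that of 23 (4.05%, 2.58 to 6.01). These shares were 7.57% for PiC and 7.03% for ESC H3K9me3 in the 50% of H3K36me3 islands with the most tags, and 2.46% and 2.64% with the 50% of H3K9me3 islands with the most tags. It lay there in PiCs alone in 12 islands, in ESCs alone in 9, in both in 14 and in neither in 533 (93.8%, 91.5 to 95.7). The H3K9me3 lists differed in size on autosomes, with 24422 islands over 91.4 Mb in PiCs and 17697 islands over 53.2 Mb in ESCs. The part of list size in the PiC and ESC shares was not tested. PiC H3K9me3 islands covered 1.01% of the receded bases and ESC H3K9me3 islands 0.84%. By bases the retained sequence had more of it, 3.32% in PiCs and 2.59% in ESCs. Over the ESC islands of all 1-to-1 pairs, 1.6% of bases lay under PiC and 2.49% under ESC H3K9me3, so it was scarce there too. By islands, PiC H3K9me3 touched the retained sequence in 6.34% (4.48 to 8.67) and ESC H3K9me3 in 5.81% (4.03 to 8.06). These intervals overlap those of the receded sequence. The edge classes did not separate: PiC H3K9me3 touched the receded sequence in 5.49% of lower-edge, 4% of upper-edge and 4.37% of both-edge islands, with overlapping intervals.

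Over the whole ESC island, PiC H3K9me3 touched 45 halved islands (7.92%, 5.84 to 10.5), near the 7.25% of all 1-to-1 pairs. ESC H3K9me3 touched 41 halved islands (7.22%, 5.23 to 9.67), below the 11.4% of all 1-to-1 pairs and the 11.8% (11 to 12.8) of pairs of kept width. Doubled pairs were touched by PiC H3K9me3 in 9.26% (5.75 to 13.9), an interval that overlaps those of the other classes, and by ESC H3K9me3 in 18.5% (13.6 to 24.4). The median ESC width was 11.2 kb in halved pairs, 14.6 kb in pairs of kept width and 5.4 kb in doubled pairs, and its part in these shares was not tested. By bases, PiC H3K9me3 covered 1.74% of halved and 1.37% of kept-width ESC islands, and ESC H3K9me3 covered 1.39% and 2.35% in the same order.

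In 3 islands H3K9me3 covered the most receded sequence in PiCs. At chr13:48577801-48585600, PiC H3K9me3 lay over 5.4 kb of the sequence lost at the lower edge and ESC H3K9me3 over none, while H3K36me3 spanned 3.6 kb in PiCs against 7.8 kb in ESCs. At chr8:59991801-60006800, PiC H3K9me3 lay over 5.2 kb of the sequence lost at the upper edge and ESC H3K9me3 over none. That island was dense, with 98 tags per kb of H3K36me3 in PiCs and 139.8 tags per kb in ESCs. At chr1:121197401-121222200 the receded sequence held 4.8 kb of H3K9me3 in PiCs and 2.4 kb in ESCs, and H3K36me3 spanned 3 kb in PiCs against 24.8 kb in ESCs.

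Nearest ESC neighbours without a PiC island were more frequent beside halved islands than beside pairs of kept width. Over all autosomal ESC islands, 1202 of 11971 had no PiC island. An ESC neighbour lay within 10 kb of 354 halved islands, and in 87 of them (24.6%, 20.2 to 29.4) the nearest had no PiC island, against 130 of 3157 (4.12%, 3.45 to 4.87) for pairs of kept width. The difference was about as wide among islands under the ESC list median of density, at 24.8% (20.2 to 29.9) for halved and 6% (4.54 to 7.76) for kept width. The neighbours themselves were fainter beside halved islands, with a median of 52.4 tags per kb in ESCs against 91.2 beside pairs of kept width. Beside islands under the list median the neighbours' medians were 51.6 and 62 tags per kb in the same order. The part of neighbour density in the difference was not tested. The nearest other PiC island was 9.3 kb away from halved ESC islands and 5.2 kb away from kept-width ones at the median, while the nearest other ESC island was 5.8 kb and 6.2 kb away. In islands with a single main edge, the next PiC island was nearer on the receding side in 47.8% (42.4 to 53.3) and the next ESC island in 53.7% (48.2 to 59.1), so neither side was preferred beyond counting error.

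**Figure D5:**
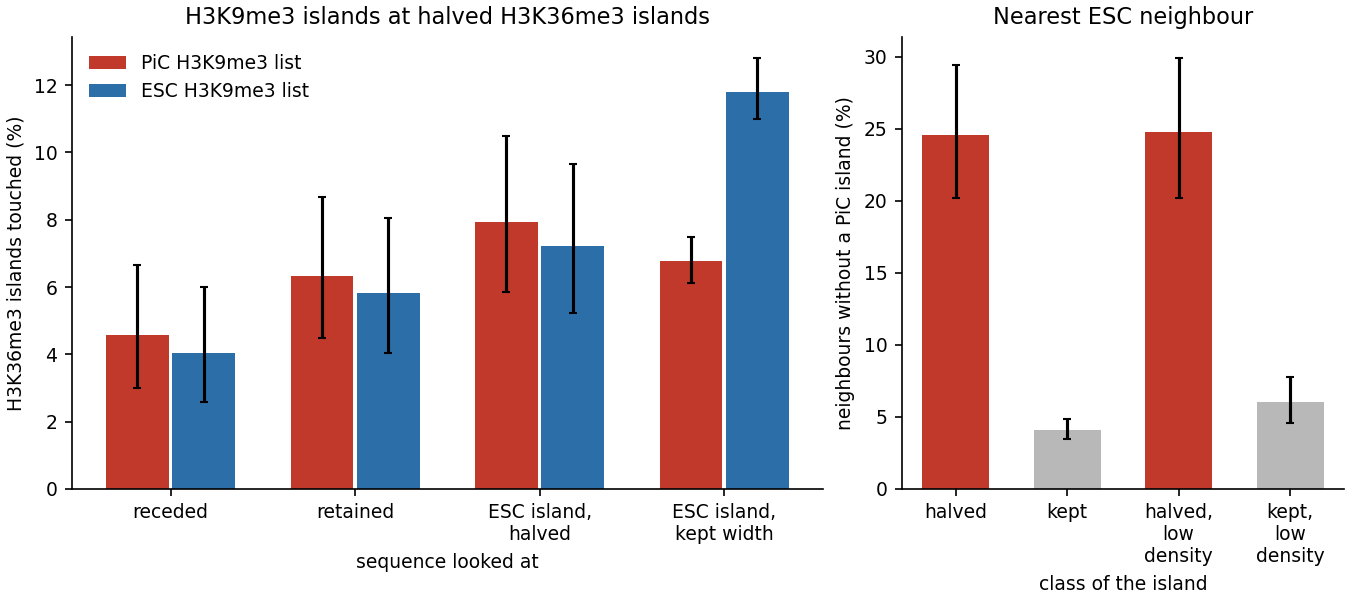
Left, share of H3K36me3 islands touched by a PiC (red) or ESC (blue) H3K9me3 island, for the receded, retained and whole ESC sequence of halved islands and for ESC islands of kept width; right, share of islands whose nearest ESC neighbour within 10 kb had no PiC island, over all pairs and over those under the ESC list median of density. Bars carry exact 95% intervals. Receded sequence is at 4.58% and 4.05%, with intervals that overlap those of the retained sequence, and it is a part of the whole ESC island. Neighbours without a PiC island are at 24.6% beside halved islands against 4.12% beside islands of kept width.

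Halved islands also followed each other along chromosomes. After a halved pair the next 1-to-1 pair was halved in 15.5% (12.7 to 18.8) of 566 cases, and after any other pair in 6.89% (6.3 to 7.51). With both pairs under the ESC list median of density the shares were 25.1% (20.3 to 30.3) and 18% (15.9 to 20.2), whose intervals barely separate. Among directly neighbouring ESC islands, 471 halved islands stood alone, 44 runs held 2 and 3 runs held 3. The runs of 3 lay at chr6:3455001-3502200, with 663 tags in PiCs against 2258 in ESCs, at chr2:72927001-72980600, with 492 against 1705, and at chr9:52961001-53024000, with 469 against 1586.

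Stretches of up to 200 kb with at least 4 halved islands numbered 4, and they were picked out after their values had been seen. The one with most members, 5 within 175.8 kb, was at chr8:86962401-87138200, where the 5 PiC islands held 28.2 kb and 912 tags against 81.2 kb and 4115 tags in ESCs. Its members receded at both edges in 3 cases and mainly at the lower edge in 2, and of the 4 other ESC islands between them, 2 had no PiC island, at chr8:87002001-87020000 and chr8:87126401-87131400. At chr16:48433801-48601200, 4 halved islands held 18.8 kb and 659 tags in PiCs against 107 kb and 9577 tags in ESCs. Unlike most halved islands these 4 were dense in ESCs, at 78.9 to 96.7 tags per kb, against 24.4 to 69.4 tags per kb in PiCs. They include the island at chr16:48548201-48580200 with the low density ratio given above and the island at chr16:48433801-48485400, which spanned 3.4 kb with 143 tags in PiCs against 51.6 kb with 4991 tags in ESCs. The remaining stretches were chr2:115468201-115606400, with 624 tags in PiCs against 1700 in ESCs, and chr9:123340601-123499600, with 541 against 1908.

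By chromosome the halved share of pairs ran from 5.04% (3.1 to 7.67) on chromosome 17 to 13% (8.56 to 18.5) on chromosome 18. Chromosome 9, with 54 of 421 pairs, followed at 12.8% (9.78 to 16.4), and chromosome 12 had 11.3% (7.86 to 15.6). The intervals of chromosomes 9, 12 and 18 lay above the autosomal share of 7.53%, and those of chromosomes 7 (5.1%, 3.49 to 7.16) and 11 (5.34%, 3.72 to 7.38) below it. These intervals are not adjusted for the 19 autosomes examined. In windows of 5 Mb with at least 20 pairs, 27 of 140 held no halved island.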

How the data were processed

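Islands were called by the authors with SICER on build mm9, per the submitters' processing notes. Not given in the sources used here were its version and thresholds, the aligner, the handling of duplicates and the use of the input. Libraries were PCR-amplified SOLiD fragment libraries, per the labels' protocols. Each deposited file lists islands with a whole number that was taken for an unscaled tag count. Starts and ends lie on a 200 bp grid, islands of a list are at least 1200 bp apart for H3K36me3, and positions are given 1-based.

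Overlap meant at least 1 bp. Edges, densities (tags per kb of island) and H3K9me3 overlaps were computed with pandas 2.3.3, scipy 1.17.1 and numpy 2.4.6 under Python 3.11.15, and drawn with matplotlib 3.10.9. Receded sequence is the part of the ESC island outside the PiC island; an edge that moved outwards counts as 0 receded. On simulated lists with 600 narrowed islands planted among 11347, all 600 were found with the right edge. With 1 library per group no test was made; islands of a library are not replicates, and amplified copies of a fragment are not independent. The interval of the density ratio uses exact order statistics of the members' median.

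Named islands follow a rule of ranks: most length lost, most ESC tags, widest per edge class, smallest width ratio, extreme density ratios, most receded sequence under PiC H3K9me3, and nearest the width limit. Runs, stretches and chromosomes were outside it and chosen after their values were seen. Members, lists and rules were chosen with earlier results of these data known. Alternatives were other width and edge limits, joined islands, the 50% of islands with the most tags, a minimum width, sex chromosomes, a stricter overlap and other density yardsticks. No genome or annotation of mm9 was used here, so genes, sequences and gene sides are not reported, and the planned comparison of gene sides was not made.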

Additional observations from a re-analysis of the deposited data

How the results depend on the processing

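Of the alternative values, 39 stayed within the interval of the reported value (counts: within 1.5 times), 31 moved further and 0 reversed. For shares of receded bases that interval counted windows of 200 bp. Windows of an island are not independent, so it was too narrow. The number of halved islands was 353 at a width limit of 0.4 and 185 in the strongest 50% of each list by tags. Their share was 4.68% and 9.94% at limits of 0.4 and 0.6, 6.61% with islands joined over 2 kb and 3.94% in the strongest 50%. The ratio of halved to doubled pairs was 3.88 and 2 at limits of 0.4 and 0.6, 1.81 with joined islands, 4.02 in the strongest 50% and 4.11 in ESC islands of at least 5 kb. It was 70.9 where 50% of the PiC island had to lie in the ESC island, which removes doubled pairs by construction. The lower-edge share was 23.6% with a main edge of 90% and 41.5% with 60%, and the both-edge share 53.3% and 13%, since that limit defines the classes. The both-edge share was 36.1% with joined islands and 35.1% in the strongest 50%. The density ratio over kept width was 1.21 in the strongest 50% and 1.47 scaled on the sum of tags. PiC H3K9me3 touched receded sequence in 7.57% of islands in the strongest 50% of the H3K36me3 lists and 2.46% in that of the H3K9me3 lists; ESC H3K9me3 did so in 7.03% in the first. Receded bases under PiC H3K9me3 were 0.747% with joined islands and 0.618% with the stronger H3K9me3 islands, and under ESC H3K9me3 0.719% and 0.579%, or 1.23% in the strongest 50% of H3K36me3 islands. Settings added after seeing the data gave a share of 16.8% and a ratio of 3.32 under the ESC list median of density, and a density ratio of 1.04 against pairs of matched density. Where no construction is named, the cause was not tested.

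No paired analysis was possible because there was a single library in every group, and leaving out a replicate was likewise not possible. Depth outside islands is unknown, so tags on receded sequence were not measured. The faintest halved islands had 22.3 tags per kb in PiCs and 28 tags per kb in ESCs, near the lowest densities of the autosomal lists, 19.9 in PiCs and 26.8 in ESCs. The comparison by gene side was not run.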

Other observations

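On chromosome X, which the choice of islands left out, 26 of 170 1-to-1 pairs (15.3%, 10.2 to 21.6) met the same width limit, against 7.53% (6.95 to 8.15) on autosomes. Under the ESC autosomal median of 71.7 tags per kb the share was 26.7% (17.9 to 37) on X and 16.8% (15.5 to 18.2) on autosomes, and the intervals overlap. The median ESC density of X pairs was 69.4 tags per kb, against 87.5 tags per kb on autosomes. Chromosome Y had 1 pair.

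Of the 57 halved islands at or above the ESC list median of density, PiC H3K9me3 touched 9 (15.8%, 7.48 to 27.9) and ESC H3K9me3 touched 7 (12.3%, 5.08 to 23.7). Of the 511 below it, PiC H3K9me3 touched 36 (7.05%, 4.98 to 9.62) and ESC H3K9me3 touched 34 (6.65%, 4.65 to 9.17). For PiC and for ESC H3K9me3 alike, the intervals of the 57 and the 511 islands overlap. Over all autosomal pairs the shares were 7.25% (6.68 to 7.86) for PiC and 11.4% (10.7 to 12.2) for ESC H3K9me3. These intervals also overlap those of the 57 islands. A difference from pairs of kept width at or above the median was not tested.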
